A study of Arabidopsis thaliana with 6 samples.

Results

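In whole seedlings of Arabidopsis thaliana, 43 of 22746 probe sets were chosen by their signal, which was lower on the array titled zer than on each of the arrays titled glc, OMG, DOG, man and wat. A member had a lowest signal of at least 60 among those 5 arrays, and a zer signal at or below 0.65 of that lowest signal. Its glc signal also had to be above 0.65 of the lowest of OMG, DOG, man and wat. This keeps out transcripts with glc at or below that limit, but not those with a milder lowering in glc. The signals that chose the members are therefore given as descriptions, and nothing is tested with them. The calcium sensor gene CML41 met these limits and was left out with a set of named stress and enzyme genes. Of the 43 probe sets, 27 are named for a single gene, 1 is named for several genes and 15 are unnamed here, so those are called by their probe set identifiers.

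The study set out to find genes that respond to glucose analogs that plants do not metabolise, as a route to glucose responses outside hexokinase. Its 6 arrays, 1 for each group, measured Col-0 seedlings at growth stage 1.02. They had been stratified for 72 h at 4 °C and kept at 23 °C under continuous light, on agar with Murashige and Skoog salts of reduced strength. The groups differ only in their titles, zer, glc, OMG, DOG, man and wat; the other labels name no agent, dose or duration, and the treatment field reads none for every array. From the series title, glc stands for glucose, and OMG and DOG are taken to be analogs of it, while zer, man and wat are kept as given, since the labels do not spell them out. With 1 array in each group there is no replicate error, so no difference below has a test, and the number of arrays limits the precision.

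Plants answer microbes and wounding with secreted hydrolases such as beta-1,3-glucanases, with intracellular receptors that carry a TIR domain, and with class III peroxidases in the wall. Jasmonic acid, the hormone of wounding, is removed in part by dioxygenases that hydroxylate it. The roles given here for genes named by locus are background knowledge of each locus, and the families were put together after the values had been seen.

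Of the 8007 probe sets that met the signal and glc criteria, 44 (0.55%), CML41 among them, also met the limit for zer. This share is fixed by the rule, and nothing is read from it. Over the members the zer signal was 1.75-fold below the lowest of the other 5 arrays in the median, with a range of 1.54-fold to 3.85-fold. Against the median of the other 5 arrays it was 2.25-fold lower in the median. In 9 members the zer signal was at most 0.5 of the next lowest. The median signal over the members was 66.6 in zer, against 139.4 in glc, 160.7 in OMG, 173.6 in DOG and 166.7 in wat, and it was highest in man.

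The limits cut through a continuous distribution. Just inside the limit for zer stood AT2G04795, with a ratio of zer to the lowest other array of 0.65, and AT5G05600, with 0.647. Just outside stood AT3G47800 (0.651) and the unnamed 249467_at (0.652). Nearest the signal minimum, the lowest other array read 62.0 for AT5G43520 and 68.4 for AT2G17740, both inside. Outside, it read 59.1 for UGT73C1, which the rule would also leave out by its symbol, and 52.9 for the unnamed 253209_at. Nearest the glc limit, glc read 0.662 of the lowest of OMG, DOG, man and wat for AT5G05600 and 0.663 for the unnamed 252265_at. With glc left out of the rule altogether, both as one of the arrays that zer must lie below and as a criterion of its own, 199 probe sets would have qualified.

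**Figure D1:**
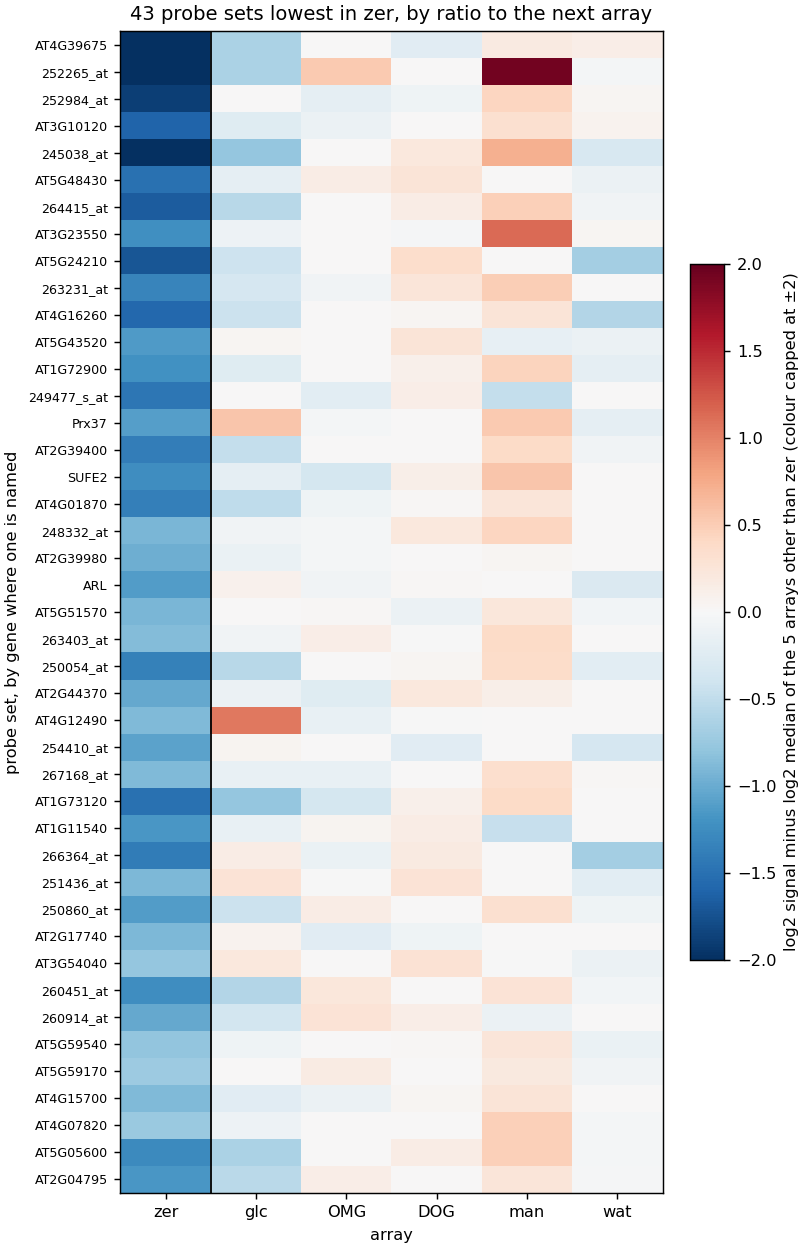
Heat map of the 43 probe sets (rows, ordered by the ratio of zer to the lowest other array) on the 6 arrays (columns, zer at the left). Colour is the log2 signal minus the log2 median of the 5 arrays other than zer, capped at 2 either way; zer is blue in every row by the rule, glc is pale blue in many rows, and man is red in most.

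The lowest ratio belonged to AT4G39675, for which no role is given here. Its signal was 66.6 in zer, against 256.2 in glc, 396.3 in OMG, 339.3 in DOG, 446.9 in man and 432.3 in wat, so zer was 3.85-fold below the next array, glc. AT3G10120 read 53.0 in zer and 136.4 in glc, 147.9 in OMG, 160.8 in DOG and 168.8 in wat, 2.57-fold below the next. For both genes glc was the second lowest array and man the highest.

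Among the unnamed probe sets, 252265_at had the widest spread. It read 45.7 in zer, against 155.8 in glc, 346.5 in OMG, 240.3 in DOG, 918.6 in man and 234.9 in wat. Its man signal was 3.87-fold above the median of glc, OMG, DOG and wat, the largest such value among the members. In 4 members (9.3%, against 0.425% of the 8007) man stood at least 1.5-fold above that median. The unnamed 252984_at read 24.3 in zer, under the 40th percentile of that array (28.8), where signals have little meaning. Against that percentile it was at least 2.76-fold lower in zer than in OMG, its lowest other array, at 79.4; DOG read 85.2, man 121.0 and wat 92.4, with glc between DOG and wat. It was the 1 member below the 40th percentile, and 4 members lay below the zer median of 43.2. The unnamed 245038_at read 78.7 in zer, 198.2 in glc, 338.1 in OMG, 389.4 in DOG, 553.4 in man and 269.6 in wat.

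The first genes by role have relatives in plant defence. AT4G16260, of the beta-1,3-glucanase family of glycosyl hydrolases, read 198.6 in zer, against 437.5 in glc, 589.1 in OMG, 605.1 in DOG, 703.7 in man and 391.9 in wat. AT1G72900, which encodes a TIR-domain protein of the immune receptor class, read 61.6 in zer, against 120.5 in glc, 142.2 in OMG, 152.9 in DOG, 193.5 in man and 124.9 in wat. In both, zer was close to 2-fold below the next array (1.97-fold and 1.96-fold), and man was the highest. AT4G12490, a lipid-transfer-like protein gene, read 272.5 in zer, against 1048.4 in glc, 457.5 in OMG, 502.7 in DOG, 507.5 in man and 504.6 in wat. It is the exception in its glc signal, which stood 2.08-fold above the median of OMG, DOG, man and wat. AT4G07820, a relative of the pathogenesis-related protein PR-1, read 81.3 in zer and between 126.2 (glc) and 188.8 (man) on the others. AT5G51570, a membrane protein gene of the band 7 family, read 106.2 in zer and between 185.7 (DOG) and 235.8 (man) on the others.

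Hydrolases and transferases form another group. AT5G24210, a class 3 lipase gene, read 47.3 in zer, against 116.5 in glc, 154.6 in OMG, 197.6 in DOG, 156.0 in man and 96.6 in wat, so its next lowest array was wat and its highest DOG. AT5G48430, an aspartyl protease gene, read 51.8 in zer, against 128.4 in glc, 160.7 in OMG, 173.6 in DOG, 145.0 in man and 133.9 in wat. For these genes zer was 2.04-fold and 2.48-fold below the next array, and DOG was the highest array for both. AT2G39400, an alpha/beta hydrolase gene, read 129.5 in zer, against 241.0 in glc, 336.3 in OMG, 338.6 in DOG, 438.2 in man and 321.5 in wat. AT2G39980, of the HXXXD acyltransferase family, had the flattest profile outside zer: 105.9 in zer, against 189.3 in glc, 202.3 in OMG, 207.9 in DOG, 212.5 in man and 208.9 in wat. Its highest and lowest signals among the 5 arrays were 1.12-fold apart, while zer was 1.79-fold below the lowest.

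Oxygenases, peroxidases and other redox proteins differed among themselves in glc. AT5G05600, a dioxygenase gene whose product hydroxylates jasmonic acid, read 108.0 in zer, against 166.8 in glc, 259.8 in OMG, 289.1 in DOG, 361.5 in man and 252.0 in wat. AT5G59540, of the same large family of 2-oxoglutarate-dependent dioxygenases, read 416.6 in zer, against 674.3 in glc, 718.8 in OMG, 729.1 in DOG, 848.9 in man and 652.5 in wat. The glc signal of AT5G05600 was 1.65-fold below the median of OMG, DOG, man and wat, whereas that of AT5G59540 was 1.07-fold below it. Prx37, a class III peroxidase gene, read 39.8 in zer, against 126.1 in glc, 83.5 in OMG, 85.4 in DOG, 122.4 in man and 75.5 in wat. It was high in glc and in man together. AT4G15700, which encodes a glutaredoxin, read 44.5 in zer and between 69.5 (glc) and 97.5 (man) elsewhere. SUFE2, outside these classes, encodes an activator of the sulfur donor for iron-sulfur cluster assembly. It read 51.0 in zer, against 106.8 in glc, 94.5 in OMG, 131.1 in DOG, 178.5 in man and 121.0 in wat. The probe set 249477_s_at, named for several genes, is given no role here. It read 46.1 in zer and between 89.7 (man) and 136.8 (DOG) elsewhere.

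A pair of members encode transport proteins. AT3G23550, a gene of the MATE efflux carriers, which export small organic molecules, read 90.4 in zer, against 196.1 in glc, 210.6 in OMG, 207.4 in DOG, 460.7 in man and 215.7 in wat. It was flat over glc, OMG, DOG and wat, and man was 2.20-fold above their median. AT1G11540, of the TauE/SafE family of anion exporters, read 44.7 in zer, against 91.1 in glc, 104.8 in OMG, 111.4 in DOG, 73.4 in man and 100.6 in wat. Here man was the lowest of the arrays other than zer.

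Cysteine- and histidine-rich C1-domain proteins are encoded by AT5G43520, AT2G44370 and AT2G17740. AT5G43520 read 31.6 in zer, against 71.6 in glc, 69.4 in OMG, 82.7 in DOG, 62.0 in man and 64.1 in wat. AT2G44370 read 58.1 in zer and from OMG, the lowest of the others, up to 136.3 in DOG, with 108.4 in glc, and AT2G17740 read 42.9 in zer and between 68.4 (OMG) and 84.6 (glc). None of these C1-domain genes had man as its highest array.

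Among genes of growth and the wall, ARL, related to ARGOS, whose product promotes organ growth through cell expansion, read 211.5 in zer, against 486.7 in glc, 437.7 in OMG, 462.6 in DOG, 457.3 in man and 375.9 in wat. AT5G59170, of a proline-rich extensin-like family, read 53.4 in zer and between 83.5 (wat) and 100.8 (man) elsewhere. ARL was highest in glc and lowest, zer apart, in wat. Of the remaining genes, AT4G01870, a TolB-related protein gene, read 558.8 in zer, against 1012.4 in glc, 1361.5 in OMG, 1462.4 in DOG, 1716.4 in man and 1445.5 in wat. AT1G73120 read 121.6 in zer and between 201.0 (glc) and 445.4 (man), AT2G04795 read 105.1 in zer and between 161.7 (glc) and 278.3 (man), and AT3G54040, of the PAR1 family, read 273.1 in zer and between 430.1 (wat) and 569.1 (DOG).

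**Figure D2:**
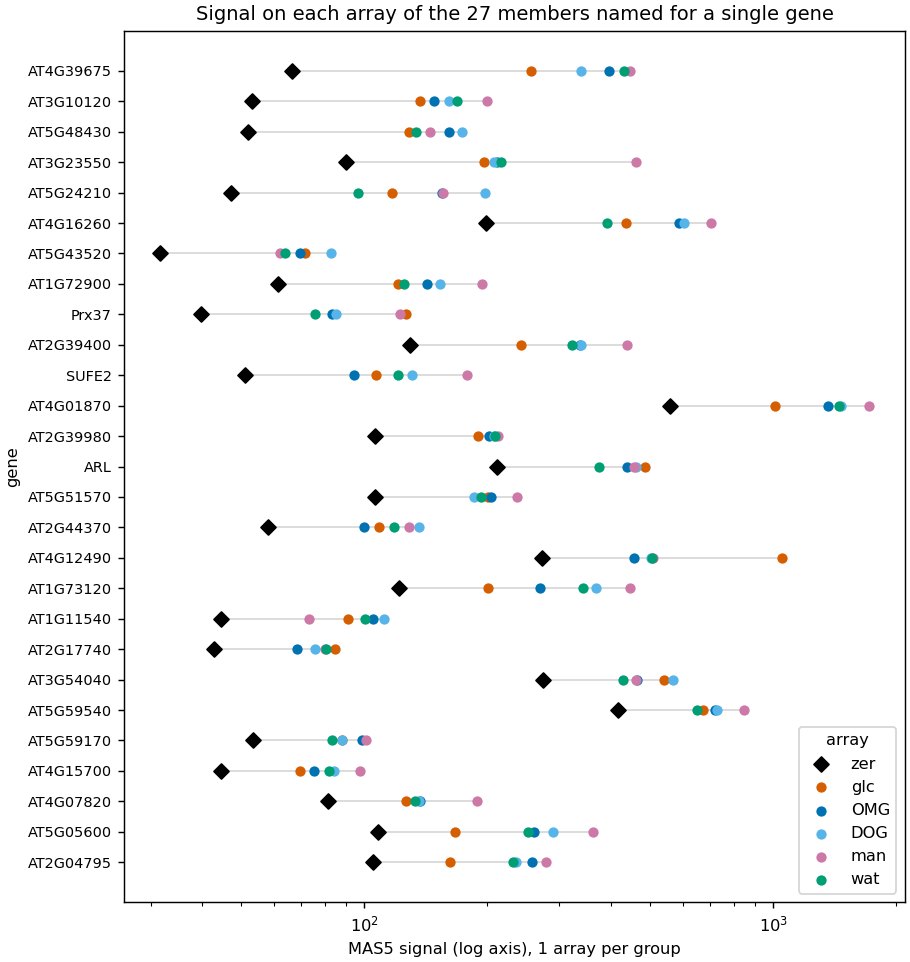
MAS5 signal (x axis, logarithmic) of the 27 members named for a single gene (rows) on each of the 6 arrays, with zer as black diamonds and the other arrays as coloured circles. Every gene has zer at the left, as the rule requires; AT4G12490 has glc far to the right at 1048.4, and AT3G23550 has man far to the right at 460.7.

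The 5 arrays other than zer were then compared over the members, an order that the rule did not use apart from its limits. The man array was the highest of the 5 for 28 of 43 members (65.1%), against 19.9% of the 8007 probe sets that met the signal and glc criteria. Those 8007 were not matched to the members, and most varied less over the 5 arrays, as set out below. DOG was highest for 8 (18.6%, against 13.7%), glc for 6 (14%, against 38.1%), OMG for 1 (2.33%, against 14.7%) and wat for 0 (against 13.6%). A tie between glc and DOG in 251436_at was counted for glc. The glc array was the lowest of the 5 for 23 members (53.5%, against 29.8%), so that it lay between zer and the other arrays there. The lowest was wat for 10 members (23.3%, against 16.6%), OMG for 6 (14%, against 12.2%), man for 3 (6.98%, against 27.2%) and DOG for 1 (2.33%, against 14.3%). For 21 members glc was lowest and man highest at once (48.8%, against 12%). In man the signal was above that in wat for 38 of 43 members (88.4%, against 48%), in DOG for 33 (76.7%, against 51.3%) and in OMG for 27 (62.8%, against 53.7%); it was above glc in man for 32 (74.4%, against 43.9%).

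**Figure D3:**
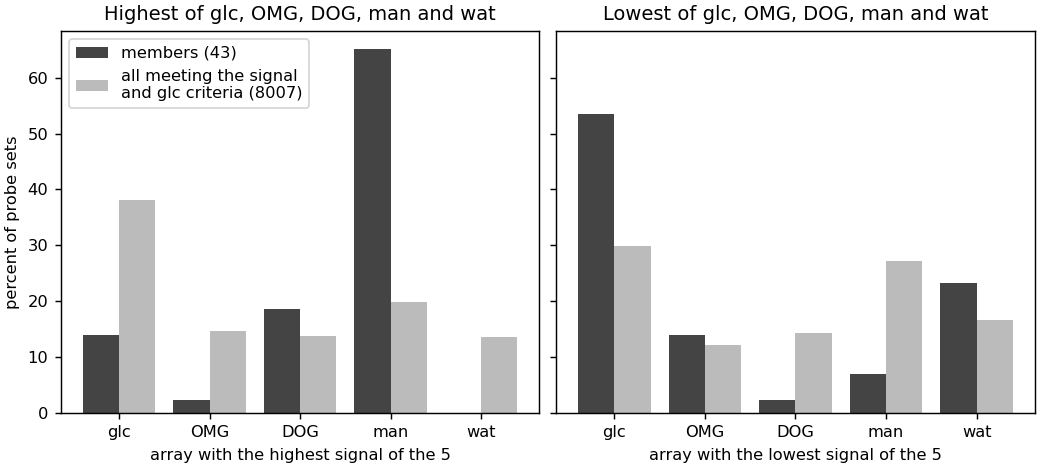
Percent of the 43 members (dark bars) and of the 8007 probe sets that met the signal and glc criteria (light bars) for which each of glc, OMG, DOG, man and wat had the highest signal (left panel) or the lowest (right panel). Among members the tallest bars are man as highest, 65.1%, and glc as lowest, 53.5%.

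By size, glc was at least 1.5-fold below the median of OMG, DOG, man and wat in 8 members (18.6%, against 2.72% of the 8007) and at least 1.5-fold above it in 1, AT4G12490 (2.33%, against 4.77%). The rule limits how low glc can be in a member, so it bounds the first of these counts. The median log2 difference of glc from that median was -0.18 over the members and 0.04 over the 8007. The named genes with the lowest glc in this sense were AT1G73120, with a log2 difference of -0.82, AT5G05600, with -0.72, AT4G39675, with -0.69, AT2G04795, with -0.61, AT4G01870, with -0.52, and AT2G39400, with -0.49. At the other end AT4G12490 had the highest difference among the named genes (1.06), followed by Prx37 (0.58), AT3G54040 (0.22), ARL (0.12), AT2G17740 (0.12) and AT5G43520 (0.10).

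Compared with wat, man was at least 1.5-fold higher in 9 members (20.9%, against 0.837%) and at least 1.5-fold lower in 0 (against 0.924%). The largest differences among named genes were those of AT3G23550 (2.14-fold), AT4G16260 (1.80-fold), Prx37 (1.62-fold) and AT5G24210 (1.61-fold). At the low end, the log2 difference of man from wat was -0.45 for AT1G11540 and -0.05 for AT5G43520, AT2G17740 read 80.2 in man and 80.4 in wat, and AT4G12490 had a difference of 0.01. The median log2 difference of man from wat was 0.33 over the members and -0.01 over the 8007.

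The glucose analogs stood closer to wat. OMG was at least 1.5-fold above wat in 2 members (4.65%, against 0.362%) and DOG in 3 (6.98%, against 0.599%), while neither was 1.5-fold below wat in any member (against 0.4% for OMG and 0.337% for DOG). AT5G24210 and AT4G16260 were the members counted for OMG, at 1.6-fold and 1.5-fold, and both were counted for DOG as well, at 2.05-fold and 1.54-fold, together with 266364_at at 1.81-fold. All of these have wat as their lowest array other than zer, and the comparisons of OMG, DOG and man with wat share the wat array, so a low wat signal enters each of them. The median log2 differences from wat were 0.08 for OMG and 0.12 for DOG, beside 0.02 and 0.01 over the 8007. Set against each other, DOG was above OMG in 31 of 43 members (72.1%, against 46.8%), but by 1.5-fold or more in 0 (against 0.325%). Without replicates no interval can be put on these differences, and whether the analogs were given at equal doses and times is not stated in the labels.

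**Figure D4:**
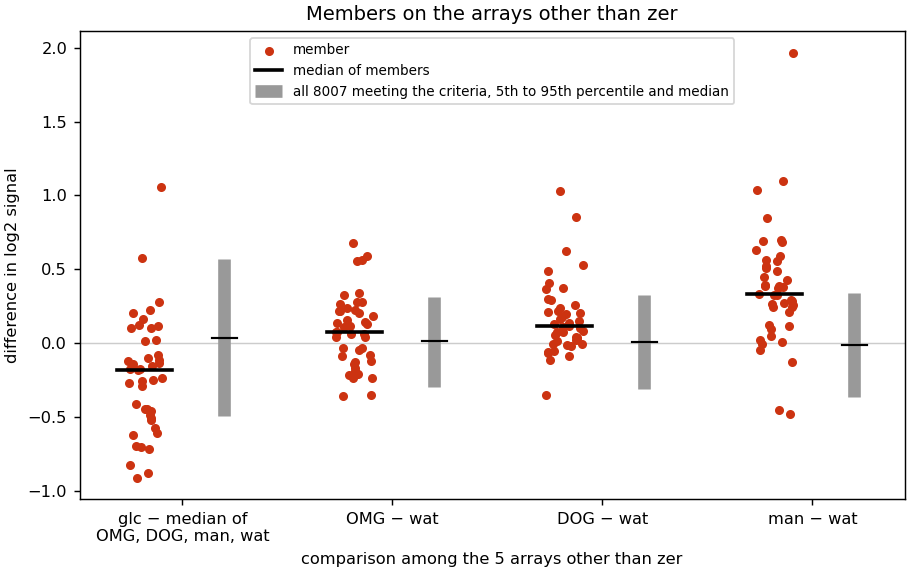
Difference in log2 signal (y axis) for the 43 members (red points, spread sideways for visibility, with the median as a thick black line) in 4 comparisons among the arrays other than zer. Grey bars span the 5th to the 95th percentile of the 8007 probe sets that met the signal and glc criteria, with a thin line at their median; 21 members lie above the bar for man minus wat and 11 lie below the bar for glc.

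The spread over the 5 arrays was set beside that of the 8007, which were not matched to the members in signal. The members' highest and lowest signals among the 5 were 1.57-fold apart in the median, against 1.3-fold over the 8007. They were at least 2-fold apart in 8 members (18.6%, against 2.22%), and at most 1.3-fold apart in 5 (11.6%, against 50.1%). These 5 were AT2G39980, AT5G59170, AT2G17740, AT5G51570 and ARL.

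Gene lists for stress, hormone, nutrition, defence and wall pathways were read in the same way. They were chosen with earlier results of these data known, so their counts are descriptions only. Of 388 genes in 18 lists, 53 could be read from a probe set of their own, 20 of these reached the signal minimum, and 0 are members; over all named genes, 27 members stood beside 4188 genes at that minimum. Relative to the median of the other 5 arrays, zer was at least 1.5-fold lower in 3 of the 20 and at least 1.5-fold higher in 1, against 3.65% and 2.01% of 4188 genes. The 3 were PUB22, an immune ubiquitin ligase gene, the transcription factor gene WRKY22 and BIK1, an immune receptor-associated kinase gene. WRKY22 read 65.7 in zer, against 74.2 in glc, 102.8 in OMG, 133.8 in DOG, 115.1 in man and 111.4 in wat. PUB22 read 64.3 in zer, against 72.1 in glc, 106.4 in OMG, 114.6 in DOG, 116.7 in man and 101.3 in wat. BIK1 read 192.9 in zer, against 234.4 in glc, 295.5 in OMG, 308.7 in DOG, 344.0 in man and 307.6 in wat. In all 3 zer was the lowest array, glc was next and man was above wat. For none of them was zer at or below 0.65 of the glc signal, and for BIK1 it was also above that share of the OMG signal. The gene higher in zer was the expansin gene EXPA8, at 201.8 in zer and between 65.5 (man) and 85.3 (DOG) elsewhere. CML41, left out by name, read 25.2 in zer, under the 40th percentile of the array, against 68.7 in glc, 104.5 in OMG, 145.1 in DOG, 143.9 in man and 60.6 in wat.

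In a reference gene table the 27 named genes lay on all 5 nuclear chromosomes, with 4, 6, 3, 7 and 7 genes on chromosomes 1 to 5, beside 1027, 596, 837, 598 and 968 of the single-gene probe sets that met the signal and glc criteria. None lay next to another: the closest were AT1G72900 and AT1G73120, with 27 genes between them.

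Several other measures were also highest in zer, some of them by small margins. Signal from the 3' end over signal from the 5' end of plant control transcripts is a ratio that grows as labelled RNA becomes less complete. It was highest in zer for 6 of 6 control pairs, and glc was second in 4 of them. The pairs cover only actin, GAPDH and ubiquitin, each read by more than 1 pair, so they are not 6 separate transcripts. The pairs with glc second were those of actin and ubiquitin. For the actin pair with the highest ratios, the ratio was 7.48 in zer, 6.41 in glc, 4.04 in OMG, 3.46 in DOG, 4.55 in man and 4.66 in wat. The other pairs spanned a narrower range over the 6 arrays. A GAPDH pair was at 1.381 in zer, 1.256 in glc, 1.355 in OMG, 1.305 in DOG, 1.353 in man and 1.211 in wat. In the other GAPDH pair zer stood further apart, at 1.162, against 0.864 in glc, 0.905 in OMG, 0.838 in DOG, 0.944 in man and 0.856 in wat. The part of RNA quality in the low zer signals was not tested. Summed signal of the root markers (4 of 10 measured) was 3639.7 in zer and 2921.2 to 3428.9 elsewhere, and that of the green tissue markers (2 of 10 measured) was 5565.9 in zer and 4562.1 to 5274.4 elsewhere, so both sums were highest in zer, where the members are lowest. Most of the root sum came from PYK10, while the other 3 root markers, EXPA7, EXPA18 and AT5G17820, read highest in glc. The 1 measured embryo marker lay far under the 40th percentile on every array. The part of tissue balance was not tested either, and in whole seedlings fewer cells of a type and less RNA per cell cannot be told apart.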

How the data were processed

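Signals of 6 arrays, 1 per group, were read from the deposited table. Per the submitters' processing notes, the authors made the deposited intensity values with MAS5; neither version nor settings are stated there. Every array had a mean signal of 100.01 after trimming 2% at each end, so the arrays had been scaled before deposit. The 64 control probe sets among 22810 were set aside. No further scaling, pseudocount or test was used, and folds are ratios of signals. Genes were named by the annotation of the array platform. Symbols were brought up to date with the RefSeq gene table for TAIR10.1, which matched 13436 of 13513 probe sets named for a single gene; 503 had several genes and 8730 were unnamed. All single-gene members are named, under a rule that took the 30 lowest ratios. The members, lists and limits were chosen with earlier results of these data known. Keyword groups over the table's names held 1 member, Prx37, among redox enzymes, since the table has few descriptions. A planned search of promoters for motifs was not made, for want of sequences. Values were computed with pandas 2.3.3. The rule was also run on simulated arrays with assumed noise, where zer was lowered in probe sets brighter than many members. That run checked the code only, and does not show how the rule performs at the dim signals here.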

Additional observations from a re-analysis of the deposited data

How the results depend on the processing

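The number of members was 43. It was 47 after quantile normalization and 55 with equal medians, a scaling that shifts zer against OMG by 0.104 in log2, and all 43 were still chosen under both. It was 46 to 48 when wat, OMG, DOG or man was left out of the rule, 42 without probe sets that may cross-hybridise, 199 without glc, 9 with a limit of 0.5 and 119 with 0.75, 28 and 68 with a signal minimum of 100 and 30, and 203 with the median of the other 5 arrays as comparator. The median log2 difference of zer from the lowest other array was -0.81, and became -1.33 (limit 0.5), -0.55 (limit 0.75) and -0.41 (median comparator). That of glc from the median of OMG, DOG, man and wat was -0.18, and became -0.42 (limit 0.5), -0.38 (median comparator) and -0.91 (without glc). Members with glc at least 1.5-fold below that median numbered 8 of 43, and became 4 of 9 (limit 0.5) and 13 of 119 (limit 0.75), against 2.72% of the 8007. They became 60 of 203 (median comparator) and 143 of 199 (without glc, where the rule no longer bounds this count). Shares over all probe sets were not computed for those settings. Members with glc 1.5-fold above numbered 1, and became 0 (limit 0.5) or 2 (limit 0.75, signal minimum 30, median comparator, without DOG, without man). Without DOG or man, that array was also left out of the median used for glc. These settings change which probe sets enter. Counts on the other arrays under quantile normalization and equal medians were added after seeing the data. The man array was highest for 29 of 47 and 38 of 55 members (20.5% and 24.7% of all that met the criteria). The glc array was lowest for 25 and 30 (53.2% and 54.5%, against 30.7% and 31.8%). The wat array was highest for 2 and 1 in place of 0 (4.26% and 1.82%, against 15.1% and 8.62%). In man the signal was at least 1.5-fold above wat for 10 and 14 in place of 9 (21.3% and 25.5%, against 0.896% and 1.27%). All 27 named genes stayed inside the limit of 0.65 under both. No paired analysis was possible because each group has 1 array. The dimmest zer signals, 24.3 for 252984_at and 31.6 for AT5G43520, lie under or close to the 40th percentile of 28.8, which limits how far their folds can be read.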
